A study of Mus musculus with 22 samples.

Results

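The antigen presentation genes examined here, 9 of the 52535 genes counted, were followed across 12 RNA-seq libraries of E14, a line of mouse embryonic stem cells. They are the MHC (major histocompatibility complex) class II chains H2-Eb1, H2-Aa and H2-Ab1, the class II chaperone Cd74, the class I heavy chains H2-K1 and H2-D1, the class I light chain B2m, the peptide transporter subunit Tap1 and the immunoproteasome subunit Psmb8. They were picked by symbol, and H2-Eb1 was included because it had been seen to be higher in these data. Its values are therefore given as a description, with no test. All libraries came from cells taken out of LIF and the 2 inhibitors that hold the pluripotent state and given 2 µM retinoic acid for 1 day. The groups, with 3 replicates each, were WT and the knockout lines D-KO, E2-KO and E1-KO. The study concerns a pair of enhancers that control the HoxB genes, and the labels do not spell D-KO out; it is read here as carrying both deletions. The number of knockout clones behind each group is not stated, so a difference between a knockout line and WT cannot be told apart from a difference between clones.

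MHC class I molecules are found on most cell types and show peptides from inside the cell to cytotoxic T cells. The peptides are cut by the proteasome, pumped into the endoplasmic reticulum by the TAP transporter and loaded onto a heavy chain paired with beta-2-microglobulin. MHC class II molecules are alpha and beta chain pairs that show peptides from endocytosed proteins to helper T cells, and they are made mainly by B cells, dendritic cells and macrophages under the transactivator Ciita. Pluripotent stem cells are known for low levels of both classes.

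The mouse MHC lies on chromosome 17. The promoters of class II genes carry a conserved X box, bound by RFX factors, followed by a Y box, bound by NF-Y. The 250 bases before the start of H2-Eb1 (chr17:34305617-34305866, plus strand), H2-Aa (chr17:34287824-34288073, minus strand) and the neighbouring class II chain H2-Eb2 (chr17:34325425-34325674, plus strand) show this arrangement. They are RefSeq sequences of build GRCm38.p6, written 5′ to 3′. Capitals mark GCAACT, a core shared by the X boxes of these 3 windows and chosen after reading them, and the Y box core CCAAT on either strand (ATTGG on the opposite one).
H2-Eb1: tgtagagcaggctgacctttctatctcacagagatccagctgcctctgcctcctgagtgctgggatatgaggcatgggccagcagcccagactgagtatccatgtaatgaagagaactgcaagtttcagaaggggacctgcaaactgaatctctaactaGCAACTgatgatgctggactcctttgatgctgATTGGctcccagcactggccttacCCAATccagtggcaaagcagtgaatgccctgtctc
H2-Aa: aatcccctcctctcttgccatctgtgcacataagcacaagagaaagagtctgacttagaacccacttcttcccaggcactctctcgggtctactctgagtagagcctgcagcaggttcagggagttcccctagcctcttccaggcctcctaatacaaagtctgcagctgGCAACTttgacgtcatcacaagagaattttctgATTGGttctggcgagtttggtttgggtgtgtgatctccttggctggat
H2-Eb2: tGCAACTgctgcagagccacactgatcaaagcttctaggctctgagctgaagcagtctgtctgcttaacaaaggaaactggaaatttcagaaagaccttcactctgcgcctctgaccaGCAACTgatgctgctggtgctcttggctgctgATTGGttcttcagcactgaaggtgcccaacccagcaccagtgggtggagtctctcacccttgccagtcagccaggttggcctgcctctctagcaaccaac

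In H2-Eb1 the GCAACT began at position -91, counted back from the start, and was followed by ATTGG after a gap of 26 bases. The gap was 27 bases in H2-Aa and 26 bases in H2-Eb2. Over the 300-base windows of all 32851 RefSeq promoters in the table, GCAACT was present on either strand in 10.9% and CCAAT in 37.4%. The pair in this order and spacing (a gap of 15 to 40 bases, read on either strand) was present in 0.283%. The windows of H2-K1, H2-D1, B2m, Tap1 and Psmb8 did not hold the pair. GCAACT was chosen after reading the class II windows, so its presence there is no test of them. For the same reason, lack of the pair in the other windows does not show that they lack an X box. Whether they hold an X box of other letters was not tested. H2-Ab1 was not matched in the promoter table.

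The promoters of B2m (chr2:122147437-122147686, plus strand) and Tap1 (chr17:34187306-34187555, plus strand) are shown as the class I counterparts, since Tap1 was called higher in each knockout and B2m lower in D-KO, a call that 9 of the 21 alternatives run ended. Capitals mark the same cores and, in B2m, a form of the interferon response element, a pair of GAAA repeats with 2 bases between them. That form was present in 3.44% of all promoters.
B2m: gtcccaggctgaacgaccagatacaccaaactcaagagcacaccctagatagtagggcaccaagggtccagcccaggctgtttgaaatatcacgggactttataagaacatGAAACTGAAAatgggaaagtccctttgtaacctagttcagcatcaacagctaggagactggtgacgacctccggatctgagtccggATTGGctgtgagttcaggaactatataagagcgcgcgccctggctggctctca
Tap1: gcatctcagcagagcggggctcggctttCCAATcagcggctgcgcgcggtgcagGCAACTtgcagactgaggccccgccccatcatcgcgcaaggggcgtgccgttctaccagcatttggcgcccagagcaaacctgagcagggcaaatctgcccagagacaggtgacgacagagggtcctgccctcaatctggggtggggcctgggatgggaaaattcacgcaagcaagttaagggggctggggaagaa

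The B2m window held the interferon element form from position -139 and ATTGG from position -53. The Tap1 window held a CCAAT from position -222 and a GCAACT from position -196, in the reverse order of the class II windows. Only 225 bases lie between the RefSeq ends of Tap1 and Psmb9, which are transcribed away from each other, so this window also reaches the start of Psmb9.

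The libraries held 9101547 to 13007735 reads counted on genes. The WT libraries stood apart from one another: the chi-square per gene between WT replicates was 35.0 to 69.4, against 2.15 to 3.76 between replicates of a knockout. Across genes, Spearman's rank correlation of a library's deviation from the mean of all libraries with exonic GC content was 0.14 in WT replicate 2 but -0.56 and -0.44 in the other two WT libraries. D-KO libraries gave -0.10 to -0.02, E2-KO libraries 0.30 to 0.44 and E1-KO libraries 0.25 to 0.35. The Y-linked genes Ddx3y and Eif2s3y had 1674 and 801 reads over the WT libraries and 0 in all 9 knockout libraries. Stem cell markers were present in every library: the summed level of 8 of them (Pou5f1, Nanog and others) was 2562 to 4880 CPM (read counts scaled to a common depth after TMM, a correction for library composition) for WT, 6408 to 6760 for E1-KO, 6041 to 6510 for E2-KO and 5133 to 5317 for D-KO.

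**Figure D1:**
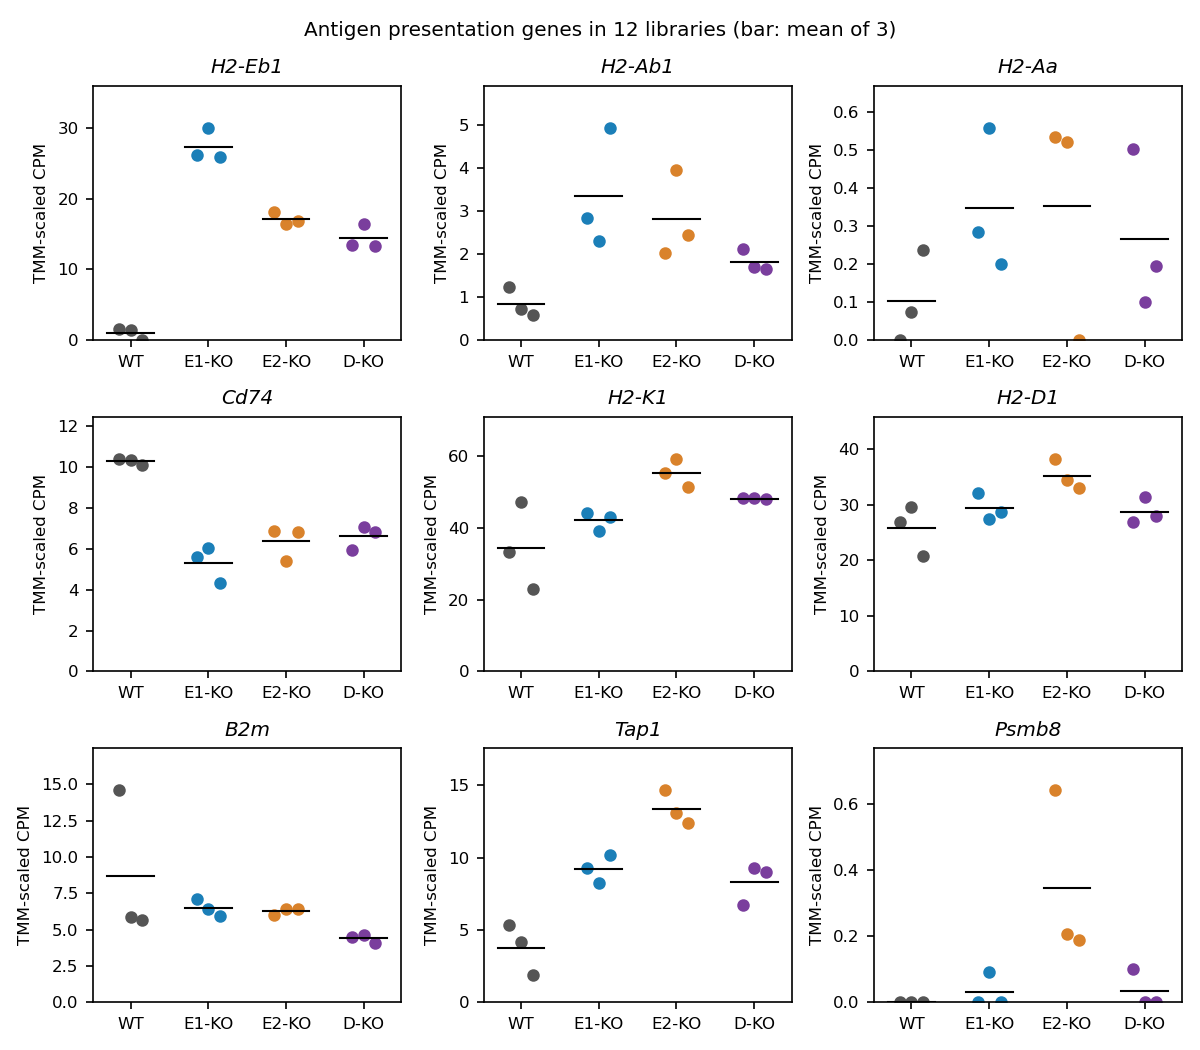
Level of each of the 9 genes (TMM-scaled CPM, linear axes that start at 0 and differ between panels) in the 3 libraries of each genotype; points are libraries and bars their means. H2-Eb1 sits between 0.119 and 1.54 in WT and between 13.3 and 29.9 in the 9 knockout libraries, whereas Cd74 is higher in WT than in any knockout library.

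H2-Eb1 encodes the beta chain of the class II molecule I-E (chr17:34305867-34316674, GRCm38). Its level in WT was 1.54, 1.41 and 0.119 CPM in replicates 1 to 3. In E1-KO it was 26.1, 29.9 and 25.9 CPM. In E2-KO it was 18.1, 16.3 and 16.9 CPM, and in D-KO 13.4, 16.5 and 13.3 CPM. Every knockout library was thus above every WT library, and the lowest D-KO library stood 8.65 times above the highest WT library. All of the E1-KO libraries were above all of the other knockout libraries, while E2-KO and D-KO overlapped.

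The order of the means was E1-KO (27.3 ± 2.25 CPM, SD, n = 3), E2-KO (17.1 ± 0.894), D-KO (14.4 ± 1.79) and WT (1.02 ± 0.785). In log2 terms H2-Eb1 was 4.65 ± 0.36 (SE) higher than WT for E1-KO, 3.98 ± 0.36 for E2-KO and 3.73 ± 0.36 for D-KO. These are ratios to a low WT level: 15, 19 and 1 reads, against 133 to 322 in the knockout libraries. Only 2 of the 3 WT libraries exceeded the count filter (0.988 CPM), so the gene was retained mainly through the knockouts. A gene annotated on the other strand, Gm20513, overlaps H2-Eb1 but no exon of it, and it had 1 read in all. In bulk RNA, more cells expressing a gene and more RNA per cell cannot be told apart, here and for every gene below.

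H2-Eb1 ranked differently among the 9 genes in WT and in the knockouts. Per kb of exon, WT cells had 11.8 CPM of H2-K1, 10.1 of B2m, 9.99 of H2-D1, 6.12 of Cd74, 0.693 of Tap1, 0.526 of H2-Eb1, 0.333 of H2-Ab1 and 0.0273 of H2-Aa. In E1-KO the per-kb level of H2-Eb1 was 14.0, beside 14.3 for H2-K1 and 1.31 for H2-Ab1. The I-A alpha chain H2-Aa was at 0.0915 per kb there. In E2-KO and D-KO the per-kb level of H2-Eb1 was 8.79 and 7.40, below that of both class I heavy chains.

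H2-Ab1 encodes the beta chain of the other class II molecule, I-A (chr17:34263227-34269418). Its levels were 1.23, 0.740 and 0.593 CPM in WT, 2.84, 2.32 and 4.93 for E1-KO, 2.03, 3.96 and 2.46 for E2-KO and 2.12, 1.72 and 1.65 for D-KO. No knockout library overlapped with WT. H2-Ab1 rose in E1-KO by 1.97 ± 0.42 on the log2 scale (edgeR adjusted p = 0.00239) and in E2-KO by 1.72 ± 0.42 (edgeR adjusted p = 0.00628). In D-KO the difference was 1.10 ± 0.44 (edgeR adjusted p = 0.0826). The counts behind these values are small, 5 to 12 reads per WT library and 17 to 49 per knockout library, and 1 of the 3 WT libraries exceeded the filter. With limma-voom the adjusted p of the rises was 0.131 in E1-KO and 0.190 in E2-KO.

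H2-Aa encodes the I-A alpha chain (chr17:34282744-34287823), the partner of H2-Ab1. It had 0, 1 and 2 reads in WT, 3, 6 and 2 for E1-KO, 5, 5 and 0 for E2-KO and 5, 1 and 2 for D-KO, and it did not pass the filter in any library. The groups overlapped. The ratio of E1-KO to WT was 3.71 with a 95% counting interval of 0.981 to 20.7, so no difference was detectable at this depth. H2-Eb2, another I-E beta chain gene next to H2-Eb1, was also below the filter, with 1 read in WT, 30 for E1-KO, 23 for E2-KO and 26 for D-KO.

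Cd74, the invariant chain that occupies the class II groove until a peptide is loaded, went the other way. It lies outside the MHC, on chromosome 18 (chr18:60803849-60812652). Its level was 10.4, 10.4 and 10.1 CPM in WT, 5.58, 6.03 and 4.33 for E1-KO, 6.85, 5.41 and 6.82 for E2-KO and 5.94, 7.07 and 6.80 for D-KO. Every knockout library was below every WT library. Cd74 fell by 0.95 ± 0.18 on the log2 scale in E1-KO (edgeR adjusted p = 0.00139), by 0.69 ± 0.18 in E2-KO (0.00941, also an edgeR adjusted p) and by 0.64 ± 0.18 in D-KO (0.0199). After removal of the GC and length trends the differences were -1.39, -1.19 and -0.97. The E2-KO call was lost without E2-KO replicate 2 (adjusted p = 0.0534) and when only WT and E2-KO libraries were fitted (0.0501). The D-KO call was lost without D-KO replicate 1 (adjusted p = 0.0902) or 3 (0.0588), with limma-voom (0.103), with no filter (0.0777) and when only WT and D-KO libraries were fitted (0.0878).

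Of the 8 genes other than H2-Eb1, 6 passed the filter and were tested. In E1-KO against WT, 3 of the 6 were called at an adjusted p below 0.05, where 34.2% of all 16765 genes tested were called: H2-Ab1 and Tap1 rose and Cd74 fell. In E2-KO it was 5 of 6, beside 35.3% of all genes: H2-Ab1, Tap1, H2-K1 and H2-D1 rose and Cd74 fell. In D-KO it was 3 of 6, beside 22.8% of all genes: Tap1 rose, and Cd74 and B2m fell. Libraries of a knockout did not overlap with WT for 3, 5 and 5 of the 6 genes in E1-KO, E2-KO and D-KO, beside 41.1%, 41.0% and 32.8% of all genes. Since such large shares of all genes were called or did not overlap, these counts describe the genes and do not set them apart.

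**Figure D2:**
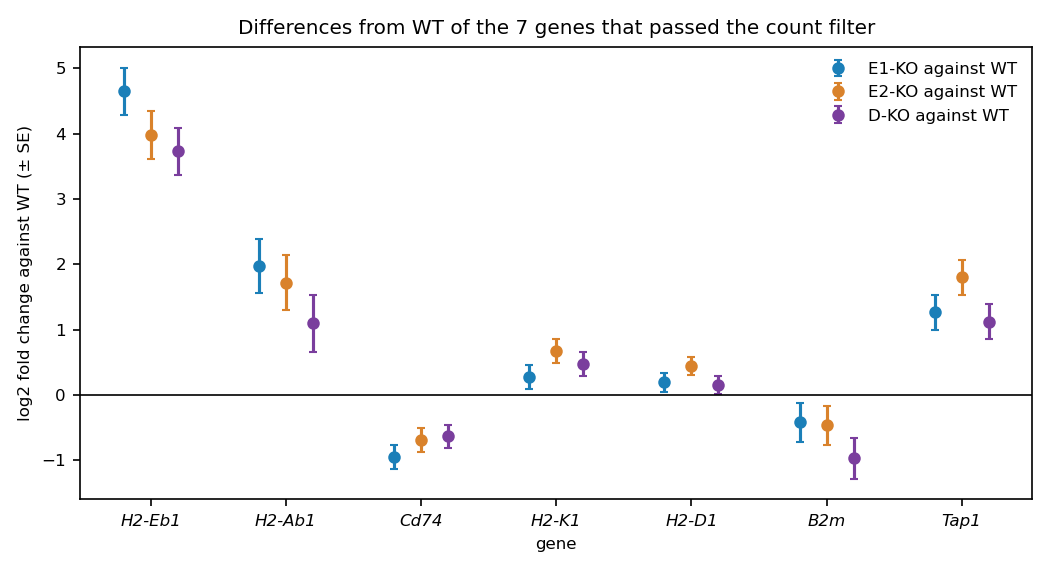
Log2 fold change against WT with its SE (edgeR fit over 12 libraries) of the 7 genes that passed the count filter, in E1-KO, E2-KO and D-KO. H2-Eb1 lies at 3.73 to 4.65, H2-Ab1 and Tap1 lie above 0 in each knockout, and Cd74 lies below 0 in each.

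The class I heavy chains differed less from WT, and were called in E2-KO only. H2-K1 (chr17:33996012-34000619) had 33.2, 47.4 and 23.1 CPM in WT, 44.2, 39.3 and 43.0 for E1-KO, 55.4, 59.1 and 51.5 for E2-KO and 48.2, 48.3 and 48.1 for D-KO. WT replicate 2 lay within the range of the knockouts, while the other two WT libraries were below all of them. H2-K1 rose in E2-KO by 0.67 ± 0.18 on the log2 scale (edgeR adjusted p = 0.0127), with differences of 0.28 ± 0.18 in E1-KO (0.261) and 0.47 ± 0.18 in D-KO (0.0804). Against WT replicate 2 alone the E2-KO difference was 0.23 (adjusted p = 0.0816), and with only WT and E2-KO libraries fitted it was 0.66 (0.0887). Without WT replicate 2, H2-K1 was also called in E1-KO (0.58, adjusted p = 0.00208) and D-KO (0.77, adjusted p = 0.000353), so this library decided those calls.

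H2-D1 (chr17:35263094-35267497) had 26.9, 29.6 and 20.8 CPM in WT, 32.2, 27.5 and 28.8 for E1-KO, 38.2, 34.5 and 33.0 for E2-KO and 26.9, 31.4 and 28.0 for D-KO. Only E2-KO did not overlap with WT. H2-D1 rose there by 0.45 ± 0.14 on the log2 scale (edgeR adjusted p = 0.0240). After removal of the GC and length trends together the difference was 0.02 (adjusted p = 0.889), and it was 0.31 without WT replicate 3 (adjusted p = 0.0583). The call was also lost without E2-KO replicate 1 (adjusted p = 0.0962) or 2 (0.0553), with limma-voom (0.0873), against WT replicate 2 alone (0.126) and when only WT and E2-KO libraries were fitted (0.124). H2-K1 kept 0.36 (adjusted p = 0.0308) under the same removal. The class I heavy chain genes are related in sequence, so how their reads were divided is uncertain. Over whole libraries, 0.429 to 0.542 reads per counted read were set aside as not uniquely aligned. How many of these came from class I genes is not known.

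B2m pairs with every class I heavy chain (chr2:122147687-122153082). It had 14.6, 5.85 and 5.69 CPM in WT, 7.10, 6.40 and 5.94 for E1-KO, 5.99, 6.45 and 6.44 for E2-KO and 4.53, 4.64 and 4.08 for D-KO. WT replicate 1 was far above the other two, which lay just below the lowest library of E1-KO and E2-KO. In E1-KO and E2-KO the log2 differences were -0.42 (edgeR adjusted p = 0.289) and -0.46 (0.244), and without WT replicate 1 they turned to 0.17 and 0.12. D-KO was below all other libraries, and there B2m fell by 0.97 ± 0.31 on the log2 scale (edgeR adjusted p = 0.0351). Without WT replicate 1 the difference was -0.39 (adjusted p = 0.137), and against WT replicate 2 alone it was -0.40 (0.251). The call was also lost without any 1 of the D-KO libraries (adjusted p = 0.0849 to 0.113), without E1-KO replicate 2, E2-KO replicate 2 or E2-KO replicate 3 (0.0506 to 0.0508), and when only WT and D-KO libraries were fitted (0.157). B2m lies within the span of Patl2 on the other strand, but no exons overlap.

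Tap1, a subunit of the transporter that carries peptides to class I molecules, rose in all 3 knockouts (chr17:34187556-34197225). It had 5.34, 4.14 and 1.90 CPM in WT, 9.27, 8.26 and 10.2 for E1-KO, 14.7, 13.1 and 12.4 for E2-KO and 6.75, 9.29 and 9.04 for D-KO. No knockout library overlapped with WT, and the E2-KO libraries were above those of the other knockouts. The rises were 1.26 ± 0.27 in E1-KO (edgeR adjusted p = 0.00279), 1.80 ± 0.27 in E2-KO (edgeR adjusted p = 0.000212) and 1.12 ± 0.27 in D-KO (edgeR adjusted p = 0.00871), all on the log2 scale. The E1-KO and E2-KO calls were kept under all 21 alternatives run. The D-KO call was lost with limma-voom (adjusted p = 0.111) and when only WT and D-KO libraries were fitted (0.0839).

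Psmb8, the immunoproteasome subunit that replaces Psmb5, lies next to Tap1 (chr17:34198195-34201454) and was almost silent. It had 0 reads in each WT library, 0, 1 and 0 for E1-KO, 6, 2 and 2 for E2-KO and 1, 0 and 0 for D-KO. E2-KO was at least 3.58-fold higher than WT, taking 3 reads over the 3 WT libraries as the limit that a count of 0 allows. The ratio of E2-KO to E1-KO was 10.6 with a 95% counting interval of 1.51 to 460, and that of D-KO to E2-KO was 0.0980 (0.00226 to 0.689). An antisense gene, Gm20496, shares 498 exonic bases with Psmb8 and had 1, 11, 16 and 8 reads in the same 4 groups. The strand setting of the counting is not given in the sources used here, and without strand the reads of such a pair cannot be told apart. Intervals and limits of this kind cover counting error only.

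The knockouts were also compared with one another. In D-KO against E1-KO, 0 of the 6 tested genes were called by edgeR over all 12 libraries, where 15.9% of all genes were. The count was also 0 of 6 in D-KO against E2-KO, beside 4.48% of all genes, and in E2-KO against E1-KO, beside 0.596%. At an unadjusted p below 0.05 the counts were 1, 1 and 2, with DESeq2 0, 0 and 0, and with limma-voom 3, 4 and 3. In that fit over 12 libraries the shared spread included that of the WT libraries. The median gene-wise dispersion was 0.0935 among WT and 0.00615 among knockout libraries. The same shared spread entered each difference from WT, where it understates the spread of the WT libraries. The SE and adjusted p of those differences may therefore be too small. Fitting only the libraries compared, which are also fewer, took the genes called against WT from 5739, 5919 and 3824 to 2552, 2535 and 1438.

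When only the libraries compared were fitted, several of the differences between knockouts were called. D-KO against E1-KO then had H2-Ab1 lower by 0.87 on the log2 scale (edgeR adjusted p = 0.0188) and B2m lower by 0.55 (0.0207), with H2-K1 higher by 0.20 (0.0184). D-KO against E2-KO had Tap1 lower by 0.68 (0.000684), B2m by 0.51 (0.0441), H2-D1 by 0.29 (0.0117) and H2-K1 by 0.20 (0.0277). E2-KO against E1-KO had Tap1 higher by 0.52 (0.00639), H2-K1 by 0.38 (0.000118) and H2-D1 by 0.24 (0.0487). H2-K1, H2-D1 and Tap1 were thus higher in every E2-KO library than in any other knockout library, whereas H2-Eb1 was highest in E1-KO. H2-Eb1 itself was 0.92 ± 0.25 lower in D-KO than in E1-KO, 0.68 ± 0.24 lower in E2-KO than in E1-KO and 0.25 ± 0.25 lower in D-KO than in E2-KO.

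If the log2 effects of the deletions added up, D-KO would differ from WT by the sum of the single knockouts. For H2-Eb1 that sum was 8.63 and D-KO stood at 3.73, a departure of -4.90 ± 0.44. Of the 6 tested genes, 3 departed from the sum in the edgeR test of the interaction, where 35.2% of all genes did. H2-Ab1 had a sum of 3.69 and a D-KO value of 1.10 (departure -2.60 ± 0.56, adjusted p = 0.00313). Tap1 had a sum of 3.06 and a D-KO value of 1.12 (departure -1.94 ± 0.37, adjusted p = 0.0013). Cd74 had a sum of -1.64 and a D-KO value of -0.64 (departure 1.00 ± 0.26, adjusted p = 0.00909). In each, D-KO was less far from WT than the sum. WT enters this contrast as well as each knockout difference, so the departure is not independent of the rises and falls above. Any difference from WT that all knockout lines share, such as the absence of Y-linked reads, would enter it with its sign reversed. A dependence of 1 deletion on the other cannot be told apart from such a shared difference.

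Several of these genes are neighbours. Within 250 kb of H2-Eb1, RefSeq lists 31 genes, H2-Eb1 included, of which 29 were in the count tables. H2-Eb1 aside, 11 passed the filter. Only 4 of the 11 exceeded the filter level in all WT libraries, so the genes retained partly through high knockout values could hardly have fallen. In E1-KO, 9 of the 11 rose, beside 15.7% of all genes called higher. They were H2-Ab1, Tap1, H2-Oa, H2-DMa, H2-DMb1, Psmb9, Tap2, Btnl7-ps and Notch4. In E2-KO 7 of the 11 rose, beside 16.7% of all genes, without H2-Oa and Btnl7-ps. In D-KO 3 of the 11 rose, Tap1, Tap2 and Notch4, beside 10.6%. In the fits over all 12 libraries, no tested neighbour was called lower than WT by edgeR, DESeq2 or limma-voom. None was lower at an unadjusted p below 0.05 by edgeR either, beside 18.5%, 18.6% and 12.2% of all genes called lower. For E2-KO this did not hold against WT replicate 2 alone. The median log2 difference of the 11 was 1.60, 1.49 and 1.00, whereas over all genes tested it was -0.01, 0.00 and -0.02. With limma-voom 3, 2 and 1 of the 11 were called.

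**Figure D3:**
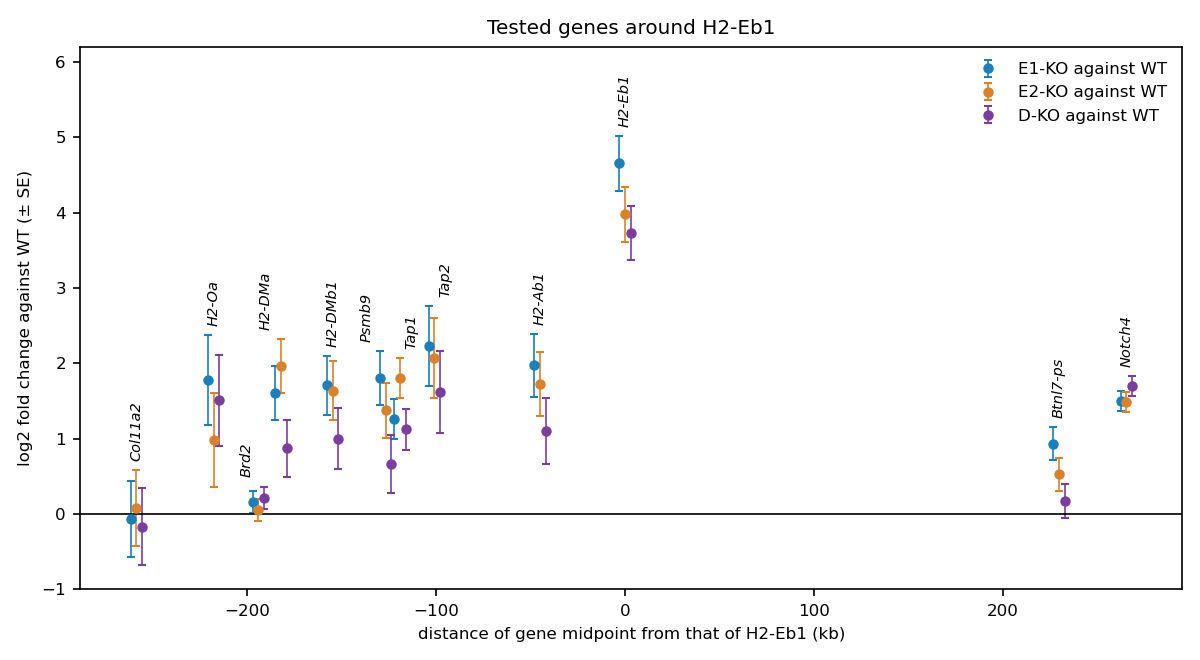
Log2 fold change against WT with its SE of the tested genes within 250 kb of H2-Eb1, by the distance of each gene's midpoint from that of H2-Eb1 in kb. H2-Eb1 stands highest; Brd2 and Col11a2 lie near 0 in each knockout; the other genes lie above 0.

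H2-DMa and H2-DMb1 encode the chains of H2-DM, which exchanges Cd74 remnants for peptide on class II molecules. H2-DMa averaged 1.02 ± 0.422 CPM in WT, 3.15 ± 0.798 for E1-KO, 4.05 ± 0.477 for E2-KO and 1.89 ± 0.559 for D-KO. H2-DMb1 averaged 0.906 ± 0.247 CPM in WT, and the knockout libraries held 1.46 to 4.17, with no overlap. Psmb9, the immunoproteasome subunit that shares its promoter region with Tap1, rose by 1.80 ± 0.36 on the log2 scale in E1-KO (edgeR adjusted p = 0.0017) and by 1.37 ± 0.37 in E2-KO (0.0106), with 0.66 ± 0.39 in D-KO (0.231). In GENCODE M21, unlike in RefSeq, exons of Psmb9 and Tap1 overlap (212 bases, 3.87% of those of Tap1). A few reads could therefore belong to either gene. For Psmb9 only 1 of the WT libraries exceeded the filter level, so it was retained mainly through the knockouts. With limma-voom the calls of H2-DMa, H2-DMb1 and Psmb9 were lost in both single knockouts (adjusted p = 0.0586 to 0.201).

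Tap2, the other transporter subunit, rose by 2.23 ± 0.53 for E1-KO, 2.07 ± 0.53 for E2-KO and 1.62 ± 0.54 for D-KO. The D-KO call was lost with library totals (adjusted p = 0.0529), limma-voom (0.180) and only WT and D-KO libraries fitted (0.171), and the E2-KO call with limma-voom (0.0744) and only WT and E2-KO libraries fitted (0.0706). Its WT level was 0 to 1.26 CPM, with 2 of the WT libraries above the filter level, and its knockout libraries were at 2.39 to 4.73 CPM. Notch4, a Notch receptor best known from endothelial cells, rose by 1.50 ± 0.13, 1.49 ± 0.13 and 1.70 ± 0.13, from 12.3 to 16.8 CPM in WT to 36.9 to 50.7 in the knockouts. Brd2, a chromatin reader between H2-DMa and H2-Oa, averaged 313 ± 79.8 CPM for WT, beside 350 ± 7.56 for E1-KO, and was not called in any knockout, with log2 differences of 0.16, 0.05 and 0.21 (edgeR adjusted p = 0.318 to 0.810).

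Many calls in the wider gene lists depended on the fit, and 34.2%, 35.3% and 22.8% of all genes were called in E1-KO, E2-KO and D-KO. Of the 34, 37 and 28 calls against WT in the lists and around H2-Eb1 (E1-KO, E2-KO and D-KO), 13, 22 and 21 were lost when only the libraries compared were fitted, and 10, 15 and 13 with limma-voom. The calls of Icam1, Cd47, Ifitm3 and Notch4 were kept in all 3 knockouts in both of these fits.

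The wider class II list had 12 genes, of which 5 other than H2-Eb1 were tested: 4 rose and Cd74 fell in E1-KO, 3 rose and Cd74 fell in E2-KO, and in D-KO Cd74 alone was called, beside 34.2%, 35.3% and 22.8% of all genes called in either direction. The genes that rose were H2-Ab1, H2-DMa and H2-DMb1, and H2-Oa in E1-KO. Of the WT libraries, 2 exceeded the filter level for H2-DMa, 1 for H2-Ab1, 1 for H2-DMb1 and 0 for H2-Oa. With limma-voom none of these rises was called, and Cd74 was not called in D-KO. The lists were chosen with earlier results of these data known. Among the class II regulators and proteases, 1 of 10 tested rose in each knockout, and 1, 2 and 2 fell in E1-KO, E2-KO and D-KO. Rfxank, a subunit of the RFX complex, rose by 0.62 ± 0.13, 0.61 ± 0.13 and 0.42 ± 0.13 on the log2 scale. Rfx5, another subunit, fell by 0.41 ± 0.15 in E2-KO and by 0.49 ± 0.15 in D-KO. Creb1, which also binds class II promoters, fell by 0.46 ± 0.16, 0.57 ± 0.16 and 0.66 ± 0.16, but after removal of the GC and length trends its E1-KO and E2-KO differences turned to 0.11 and 0.15. Under that removal the Rfx5 call in E2-KO (adjusted p = 0.0577) and the Rfxank call in D-KO (0.0581) were also lost. Both Rfx5 calls were lost with library totals (0.139 in E2-KO and 0.0596 in D-KO) and with limma-voom (0.103 and 0.079). Fitting only the libraries compared ended the Rfx5 calls (0.163 and 0.17) and the Rfxank calls in E2-KO (0.0502) and D-KO (0.172). It also ended the Creb1 calls (0.0911 to 0.167). Ciita, the class II transactivator, averaged 0.557 CPM in WT, 1.44 for E1-KO, 1.15 for E2-KO and 0.564 for D-KO and was not called (edgeR adjusted p = 0.083, 0.174 and 0.894).

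Class I heavy chains and B2m numbered 15 tested of 24 listed. The shares of all genes called, 34.2%, 35.3% and 22.8%, apply to their counts and to those of the peptide loading genes. In E1-KO 1 rose (H2-M2, by 1.13 ± 0.39 on the log2 scale), 4 rose in E2-KO (H2-K1, H2-D1, H2-M2 and H2-Q4), and in D-KO B2m alone was called. The H2-M2 call in E1-KO was lost with DESeq2 (adjusted p = 0.0534), limma-voom (0.29) and only WT and E1-KO libraries fitted (0.106). Its E2-KO call was lost with limma-voom (adjusted p = 0.25) and only WT and E2-KO libraries fitted (0.0817). H2-Q4 rose by 0.68 ± 0.20 in E2-KO, a difference of 0.34 once the GC and length trends were removed (adjusted p = 0.213). The list's median difference was 0.01, 0.45 and 0.11. Of the 10 peptide loading genes, 2 rose and 3 fell in E1-KO, 3 rose and 2 fell in E2-KO, and 2 rose and 2 fell in D-KO. Calreticulin (Calr), a chaperone of new heavy chains, fell in E1-KO by 0.47 ± 0.10 (edgeR adjusted p = 0.00256), with 854 CPM in WT and 615 in E1-KO, and the chaperone Canx and the oxidoreductase Pdia3 fell by 0.42 ± 0.14 and 0.50 ± 0.18. After removal of the GC and length trends the difference was -0.09 for Canx (adjusted p = 0.483) and -0.35 for Pdia3 (0.0749), and with library totals the calls were lost too (0.103 and 0.116). The Calr call was lost when only WT and E1-KO libraries were fitted (adjusted p = 0.0677). Tapbp, which holds class I molecules at the transporter, rose by 0.75 ± 0.18 in E2-KO, a difference of 0.31 after removal of the GC and length trends (adjusted p = 0.0532). Tapbpl, a peptide editor, fell by 1.21 ± 0.26 in E2-KO and by 0.96 ± 0.26 in D-KO. Its D-KO call was lost with limma-voom (adjusted p = 0.16) and only WT and D-KO libraries fitted (0.0862). The peptide-trimming enzyme Erap1 fell by 0.86 ± 0.31 in E2-KO and by 0.92 ± 0.31 in D-KO, but its differences were -0.36 and -0.42 against WT replicate 2 alone. Nlrc5, the class I transactivator, averaged 0.442 CPM in WT, 0.676 for E1-KO, 1.11 for E2-KO and 1.23 for D-KO and was not called (edgeR adjusted p = 0.496, 0.113 and 0.0955).

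**Figure D4:**
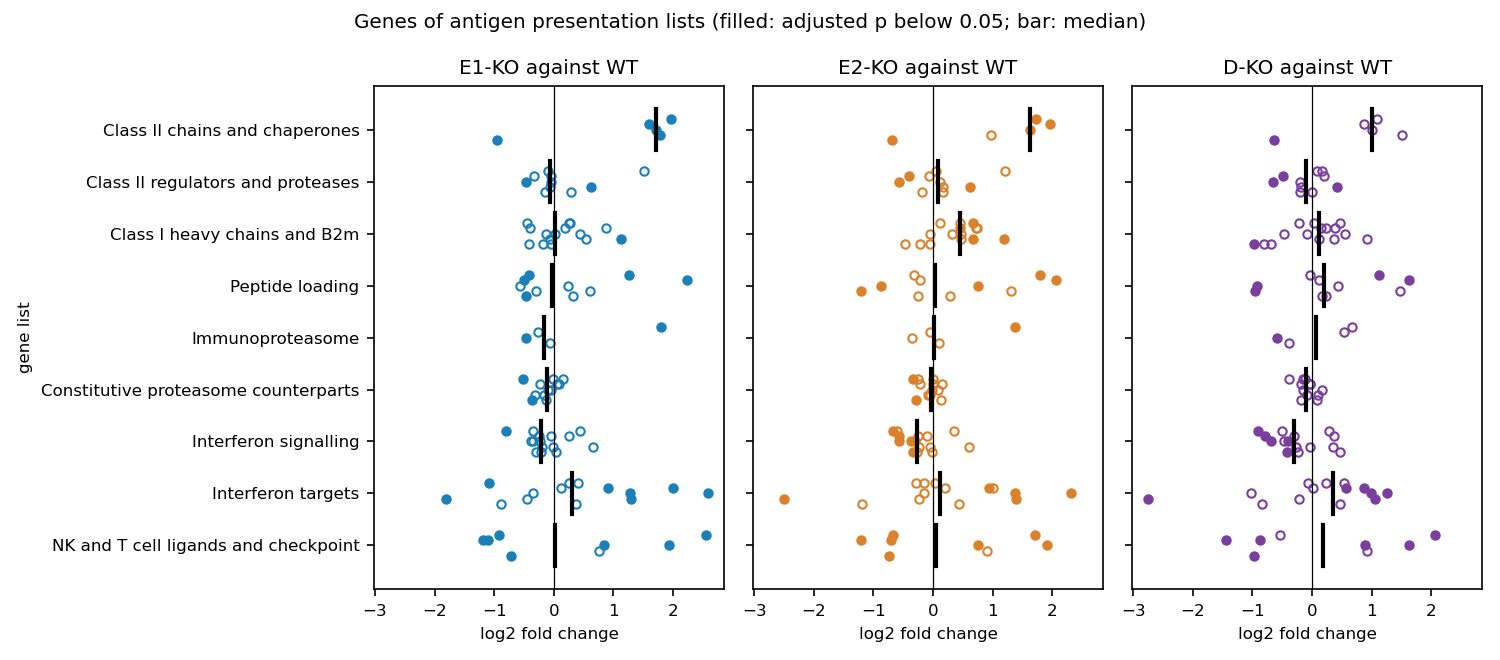
Log2 fold change against WT of the tested genes of 9 lists, H2-Eb1 left out, in E1-KO, E2-KO and D-KO; filled points were called at an adjusted p below 0.05, open points were not, and bars are list medians. The class II chains and chaperones lie at 1.60 or above in E1-KO except Cd74, while the constitutive proteasome genes lie near 0.

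Of the 4 tested immunoproteasome genes, Psmb9 rose in E1-KO and E2-KO, and the activator subunit Psme1 fell by 0.46 ± 0.15 in E1-KO and by 0.59 ± 0.15 in D-KO. The Psme1 call in E1-KO was lost with library totals (adjusted p = 0.122) and only WT and E1-KO libraries fitted (0.148). Its D-KO call was lost with only WT and D-KO libraries fitted (adjusted p = 0.092). Among 12 subunits of the constitutive proteasome and its activators, Psma1 and Psma3 fell in E1-KO (by 0.37 ± 0.09 and 0.52 ± 0.11) and in E2-KO (by 0.29 ± 0.09 and 0.34 ± 0.11). These 4 calls were lost after removal of the GC and length trends (adjusted p = 0.205 and 0.206, then 0.313 and 0.922). The direct counterparts Psmb5, Psmb6 and Psmb7 were not called in any knockout, with log2 differences between -0.16 and 0.16.

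Interferon is the best known inducer of antigen presentation genes. Of 15 tested signalling genes, 1 fell in E1-KO (Ifngr1, by 0.80 ± 0.24). Ifnar1, a chain of the type I receptor, and the kinases Jak1, Jak2 and Tyk2 fell both in E2-KO and in D-KO. No signalling gene was called higher in any of the 3 comparisons by edgeR with TMM, beside 15.7%, 16.7% and 10.6% of all genes. The shares of all genes called lower were 18.5%, 18.6% and 12.2%. Tyk2, a kinase of the type I receptor, fell by 0.57 ± 0.14 in E2-KO and by 0.78 ± 0.14 in D-KO, Jak2 by 0.68 ± 0.19 and 0.91 ± 0.20, and Jak1 by 0.33 ± 0.11 and 0.43 ± 0.11. The list's median was -0.22, -0.27 and -0.30. When only the libraries compared were fitted, 0, 0 and 1 signalling genes were called lower in E1-KO, E2-KO and D-KO, the 1 being Tyk2. The Ifngr1 call was then lost (edgeR adjusted p = 0.0877), as were those of Ifnar1 in E2-KO (0.124) and D-KO (0.155). With limma-voom the calls of Tyk2 in E2-KO (adjusted p = 0.0733) and Ifnar1 in D-KO (0.0532) were lost. The falls of the Janus kinases were smaller against WT replicate 2 alone: -0.07 for Jak1 (adjusted p = 0.551) and -0.12 for Jak2 (0.658) in E2-KO.

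Of 30 interferon target genes 14 were tested, and 16, among them Isg15, Ifit1, Cxcl10 and Rsad2, were below the filter in these cells. In E1-KO 5 rose and 2 fell, 4 rose and 1 fell in E2-KO, and 5 rose and 1 fell in D-KO. Beside these counts, 34.2%, 35.3% and 22.8% of all genes were called. Xaf1, a pro-apoptotic target, rose by 2.58 ± 0.30, 2.32 ± 0.30 and 0.99 ± 0.31 in the same order of knockouts, and the D-KO call was lost with limma-voom (adjusted p = 0.254). Oas1a, a sensor of double-stranded RNA, rose by 1.29 ± 0.22, 1.39 ± 0.22 and 1.05 ± 0.22, and the membrane protein Ifitm3 by 1.28 ± 0.22, 1.37 ± 0.22 and 1.25 ± 0.22. Ifitm2 rose by 0.90 ± 0.26, 0.94 ± 0.26 and 0.87 ± 0.26, but it was not called in any knockout when only the libraries compared were fitted (adjusted p = 0.0782 to 0.131). Oasl1 rose by 2.01 ± 0.59 in E1-KO, with an adjusted p of 0.154 under limma-voom. Ddx58 rose by 0.56 ± 0.15 in D-KO, with an adjusted p of 0.0716 under limma-voom. Bst2 fell by 1.08 ± 0.25 in E1-KO. The GTPase gene Irgm1 fell by 1.80 ± 0.65, 2.50 ± 0.76 and 2.75 ± 0.79, from 1.33 CPM in WT to 0.200 in D-KO. Its E1-KO call was lost under 6 alternatives (adjusted p = 0.0508 to 0.122), and its E2-KO and D-KO calls were lost with limma-voom (0.0855 and 0.0719).

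Genes that T cells and natural killer cells read beside MHC moved in both directions. Of 8 tested, 3 rose and 4 fell in each single knockout, and 3 rose and 3 fell in D-KO. Icam1, the adhesion molecule of the immune synapse, rose by 1.93 ± 0.17, 1.92 ± 0.17 and 1.62 ± 0.17, from 11.4 CPM in WT to 44.3, 43.8 and 35.6. Cd40, a costimulatory receptor, rose by 2.55 ± 0.61, 1.71 ± 0.63 and 2.07 ± 0.62, calls that were lost with limma-voom (adjusted p = 0.0864, 0.274 and 0.241). Ulbp1, a ligand of the killer cell receptor NKG2D, rose by 0.83 ± 0.19, 0.76 ± 0.19 and 0.89 ± 0.19. Cd47, which restrains phagocytosis, fell by 1.11 ± 0.20, 1.21 ± 0.20 and 1.44 ± 0.21, and Cd80 and the NKG2D ligand Raet1e also fell in all 3 knockouts. Raet1d, another NKG2D ligand, fell by 0.92 ± 0.24 in E1-KO and by 0.66 ± 0.24 in E2-KO. The shares of all genes called, 34.2%, 35.3% and 22.8%, apply to these counts too.

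Leukocytes carry class II molecules, and their markers were examined in the same libraries. The summed level of 15 markers was 190 to 249 CPM in WT, 199 to 212 for E1-KO, 238 to 250 for E2-KO and 217 to 228 for D-KO, and most of it came from Laptm5 and Cd68. Single markers differed in opposite directions, which the sum does not show. Cd68 averaged 30.0 CPM in WT, 42.8 for E1-KO, 63.4 for E2-KO and 77.0 for D-KO. Itgam averaged 4.67, 1.01, 1.13 and 1.63 CPM in the same order. The pan-leukocyte gene Ptprc had 2 reads over the WT libraries and 0 in every knockout library, the macrophage gene Adgre1 had 0 in all 12, and Itgax had 3 reads, all in D-KO. The 10 fibroblast markers summed to 49.3 to 64.4 CPM in WT and 31.7 to 41.0 in the knockouts, with Lum at 0 throughout. Most of that sum came from Pdgfra and Pdgfrb. Pdgfra averaged 26.5 CPM in WT, 4.11 for E1-KO, 10.8 for E2-KO and 13.5 for D-KO. Pdgfrb averaged 22.7, 25.9, 20.4 and 14.0 CPM in the same order. Thy1 was higher in the knockouts, with 2.04, 4.18, 4.83 and 3.81 CPM.

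The 5 named genes with the pattern most like that of H2-Eb1 were found over the 12 libraries by the root mean square difference of log2 CPM centred on each gene's own mean: Miip (0.57), Cyp2b23 (0.66), Pkd1l2 (0.70), Egr4 (0.71) and Tbxa2r (0.75). Miip, an inhibitor of cell migration, averaged 1.41 CPM in WT, 14.8 for E1-KO, 23.4 for E2-KO and 18.5 for D-KO, and the cytochrome P450 gene Cyp2b23 averaged 2.86, 62.2, 79.1 and 78.1. Neither shared the H2-Eb1 order, in which E1-KO was highest. Pkd1l2 did share it, with means of 0.442 CPM in WT, 4.37 for E1-KO, 3.24 for E2-KO and 3.19 for D-KO. Egr4 and Tbxa2r did not, as their E1-KO mean was the lowest of the knockouts. Among the genes of antigen presentation Tap1 was the nearest (1.34, rank 322 among the other genes tested) and H2-Ab1 the next (1.39, rank 434).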

How the data were processed

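RNA-seq of 12 libraries was analysed; 10 samples (4C-seq and ChIP-seq) were not used here. The authors deposited 1 table of read counts per gene for each library. The submitters' processing notes name HISAT2 2.1.0, HTSeq 0.9.1, DESeq2 1.18.1 and build mm10; the annotation and the strand setting: not given in the sources used here. Total RNA had been isolated in Trizol, per the labels' protocols. HTSeq's summary rows, which name no gene, were left out: reads on no feature came to 1.11 to 1.20, and reads not uniquely aligned to 0.429 to 0.542, per read counted on a gene.

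Counts were tested with edgeR 4.0.16 (R 4.3.3): filterByExpr by genotype, TMM scaling, a robust quasi-likelihood fit over all 12 libraries with 1 mean per genotype and no covariate, and Benjamini-Hochberg adjustment over the 16765 genes tested, with calls below 0.05. SE values come from the unshrunk coefficients and the quasi-dispersion. Every difference is on the log2 scale. The fit was tested on simulated data. Groups came from the sample titles. The members and gene lists were chosen with earlier results of these data known. All 9 members were described. From each of the 9 lists the text names up to 3 called genes with the smallest p over the comparisons with WT, and the genes behind a list's count of 5 or fewer calls; 1 gene of the interferon signalling list is not reported here. It also names the called genes within 250 kb of H2-Eb1 and the 5 genes with the pattern most like it (log2 CPM with a prior count of 2; predicted loci left out). Other list genes named (Ciita, Nlrc5, Psmb5, Psmb6 and Psmb7, and those under the filter) were chosen after their values were seen, as were Brd2, Col11a2, H2-Eb2 and Gm20496. Exon length and GC came from GENCODE M21, which paired 48007 of the 52535 symbols with 1 gene. Positions and promoters came from RefSeq (GRCm38.p6, the assembly of mm10). Alternatives were DESeq2 1.42.0, limma 3.58.1 (voom with sample quality weights), RLE scaling, library totals, no filter, only the libraries compared, the replicate number as a block, each library left out, WT replicates 1 and 3 left out, and GC and length trends removed.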

Additional observations from a re-analysis of the deposited data

Results flagged for a closer look

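The departure from additive log2 effects compares D-KO with the sum of the single knockout differences. It passed the threshold for 3 of the 6 tested genes (edgeR, 3 libraries per genotype). A dependence of 1 deletion on the other cannot be told apart here from a difference from WT shared by all knockout lines. For H2-Ab1 the departure was -2.60 ± 0.56 (SE, adjusted p = 0.00313). For Tap1 it was -1.94 ± 0.37 (adjusted p = 0.0013), and for Cd74 1.00 ± 0.26 (adjusted p = 0.00909). Each kept its call under all 20 alternatives run. Among all genes tested 35.2% departed from additivity in the same contrast, which includes the WT libraries, so the flag is common in these data.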

How the results depend on the processing

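The 6 tested genes kept the direction of every call under the alternatives run. The WT libraries varied most and set most limits: each of their calls against WT that ended is given beside its gene above. Of the calls in the lists and around H2-Eb1 (28 for D-KO, 37 for E2-KO and 34 for E1-KO), fitting only the libraries compared ended 21, 22 and 13, limma-voom 13, 15 and 10, WT replicate 2 as the only WT library 9, 14 and 6, removal of the GC and length trends 5, 12 and 8, library totals 4, 6 and 6, DESeq2 0, 1 and 2, and RLE scaling 0. Depth limited H2-Aa and Psmb8, with at most 6 reads in a library. Leaving WT with 1 library assumes that it varies like the other groups.

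The members called in E2-KO against WT numbered 5; they were 3 with limma-voom, 2 with only the libraries compared and 3 without WT replicates 1 and 3. In D-KO against WT there were 0 of 6 with only the libraries compared (5 at an unadjusted p below 0.05 over all libraries, 3 with DESeq2 and 2 with limma-voom). The calls between knockouts rose from 0 to 3, 4 and 3 (D-KO against E1-KO, D-KO against E2-KO, E2-KO against E1-KO) with limma-voom, with only the libraries compared, and without WT replicates 1 and 3, and D-KO against E1-KO had 1 call after removal of the GC and length trends. Of the 11 genes around H2-Eb1, a count whose alternatives were added after seeing the data, limma-voom called 3, 2 and 1 in E1-KO, E2-KO and D-KO, and with only the libraries compared 4 were called in E2-KO and 1 in D-KO.

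Over all genes, 5739, 5919 and 3824 were called in E1-KO, E2-KO and D-KO against WT. With only the libraries compared the counts were 2552, 2535 and 1438, and D-KO had 6238 without WT replicates 1 and 3. D-KO against E1-KO went from 2674 to 8007 with limma-voom, 8027 with only the libraries compared and 8030 without WT replicates 1 and 3. D-KO against E2-KO went from 751 to 1213 with DESeq2, 5877 with limma-voom, 1472 with no filter, 5872 with only the libraries compared, 6157 without WT replicates 1 and 3 and 1377 without GC and length trends. E2-KO against E1-KO went from 100 to 250, 2953, 415, 3378, 3457 and 266 under the same 6 settings. Library totals moved the share of higher calls from 45.9% to 57.1% in E1-KO against WT, from 52.9% to 36.0% in D-KO against E1-KO, from 46.0% to 35.0% in E2-KO against E1-KO and from 51.4% to 38.7% in the interaction, and shifted the median gene by -0.11 in D-KO against E1-KO and -0.18 in the interaction.

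With each library left out in turn, all genes called ranged from 3965 to 8753 for E1-KO, 3969 to 8888 for E2-KO and 2413 to 7006 for D-KO against WT, 1174 to 4934 in D-KO against E1-KO, 227 to 2875 in D-KO against E2-KO, 16 to 722 in E2-KO against E1-KO and 4621 to 8673 in the interaction. Members called ranged from 3 to 4, 3 to 5 and 1 to 4 against WT, 0 to 1 in D-KO against either single knockout and 3 to 5 in the interaction, and were 0 in E2-KO against E1-KO. Genes around H2-Eb1 ranged from 8 to 10, 7 to 8 and 2 to 6.

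The replicate numbers are shared between genotypes but did not pair the libraries: the correlations of same-numbered deviations were -0.08 to 0.08, and 0 of 18 exceeded 0.1. With the replicate number as a block, 5415, 5581 and 3467 genes were called in E1-KO, E2-KO and D-KO against WT, and the members called were 3, 5 and 3 as without it.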
